A study of Homo sapiens with 10 samples.

Results

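Type I interferon response genes were followed in KYSE-410 cells knocked out for SHIP2. The set comprised 41 genes that interferon-alpha and interferon-beta are known to induce or that take part in that response, and whose rows were taken from the table by gene name. All 41 had a row among the 58302 genes of the deposited table of CPM (reads of a gene scaled to a common library total), which covers 10 libraries. The question put to them was how they stood in each knock-out clone and whether BST2, a member with a very large change in some clones, moved with the others.

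KYSE-410 is an established line of human oesophageal squamous cell carcinoma. SHIP2, encoded by INPPL1, is a phosphatase that removes a phosphate from the lipid product of PI3-kinase. The knock-out groups were the clones D4, G4, G10 and H3, made with a Cas9 nickase and sorted on a GFP reporter, expanded and screened for SHIP2 protein, and the control was a colony that received the same vector without a guide. Every group had 2 libraries, each clone is 1 clone and the control is 1 colony, so a difference from the control is a difference between particular colonies. The labels do not say whether the 2 libraries of a group came from separate cultures, so the p-values below measure the spread between those libraries, which may be technical.

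Type I interferons bind a receptor made of IFNAR1 and IFNAR2, which activates the kinases JAK1 and TYK2. These phosphorylate STAT proteins, and a complex that holds STAT2 and IRF9 binds the interferon-stimulated response element (ISRE) in the promoters of many genes, while other STAT complexes bind the GAS element. The products sense viral RNA (IFIH1, DDX58, DDX60), destroy or block it (the OAS and IFIT families, EIF2AK2), stop viruses at membranes (the IFITM proteins, and BST2, also called tetherin, which holds budding virions at the cell surface) or tag proteins with ISG15. Many of them also have a basal level in epithelial and carcinoma cells without added interferon.

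Promoters of 5 members are shown because their genes carry the comparison with BST2. IFIT1 and IFI44L were among the members whose levels were most like those of BST2. IRF1 was as well but its promoter has no ISRE core (defined below), and IFIH1 went the opposite way. Each is the RefSeq sequence (GRCh38.p14) from 250 bases before to 50 bases after the transcription start, 5′ to 3′ on the gene's strand. Capitals mark the ISRE core (GAAA, any 2 bases, then GAAA) on either strand, overlapping matches joined, and in IRF1, which has no such match, the GAS core TTCNNNGAA.
BST2 (chr19:17405581-17405880, minus strand): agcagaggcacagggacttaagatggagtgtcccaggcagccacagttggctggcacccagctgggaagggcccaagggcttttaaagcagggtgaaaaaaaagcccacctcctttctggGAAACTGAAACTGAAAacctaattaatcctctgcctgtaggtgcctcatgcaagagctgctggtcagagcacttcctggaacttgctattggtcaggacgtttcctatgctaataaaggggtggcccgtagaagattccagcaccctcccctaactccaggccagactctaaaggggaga
IFIT1 (chr10:89392373-89392672, plus strand): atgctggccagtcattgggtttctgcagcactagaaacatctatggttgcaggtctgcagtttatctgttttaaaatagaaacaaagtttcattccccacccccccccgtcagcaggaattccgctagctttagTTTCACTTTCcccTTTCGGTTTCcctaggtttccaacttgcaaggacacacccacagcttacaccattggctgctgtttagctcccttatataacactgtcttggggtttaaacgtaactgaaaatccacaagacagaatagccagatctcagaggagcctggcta
IFI44L (chr1:78620198-78620497, plus strand): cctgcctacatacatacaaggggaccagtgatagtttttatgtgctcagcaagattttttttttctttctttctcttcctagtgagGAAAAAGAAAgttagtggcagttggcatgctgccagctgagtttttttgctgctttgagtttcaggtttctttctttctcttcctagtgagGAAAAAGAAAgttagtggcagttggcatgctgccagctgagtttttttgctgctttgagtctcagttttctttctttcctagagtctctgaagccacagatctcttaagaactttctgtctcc
IRF1 (chr5:132490724-132491023, minus strand): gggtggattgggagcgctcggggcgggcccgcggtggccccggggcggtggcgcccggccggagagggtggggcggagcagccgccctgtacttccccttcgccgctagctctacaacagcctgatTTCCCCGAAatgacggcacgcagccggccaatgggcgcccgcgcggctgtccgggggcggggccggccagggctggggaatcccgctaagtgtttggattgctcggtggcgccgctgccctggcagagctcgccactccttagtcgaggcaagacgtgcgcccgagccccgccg
IFIH1 (chr2:162318635-162318934, minus strand): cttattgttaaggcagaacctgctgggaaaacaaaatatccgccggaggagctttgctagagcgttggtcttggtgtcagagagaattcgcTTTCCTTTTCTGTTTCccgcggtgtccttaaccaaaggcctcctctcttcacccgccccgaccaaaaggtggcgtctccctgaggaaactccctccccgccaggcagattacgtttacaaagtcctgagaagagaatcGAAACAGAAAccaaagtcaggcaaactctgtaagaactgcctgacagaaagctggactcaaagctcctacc

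The ISRE core lay in 26 of the 45 member promoters in the RefSeq table, or 57.8%, against 3.57% of all 35116 promoters there. Counted by gene, 22 of the 33 members with an entry had it, and 8 members had no entry (IRF7, USP18, IFIT2, OAS2, OASL, IFITM2, MX2 and TRIM22). The GAS core was in 24.4% of the member promoters and 7.66% of all promoters. In the BST2 promoter the capitals hold 2 overlapping ISRE cores that begin 130 and 124 bases before the start, and the window has only 2 CG dinucleotides, against a median of 14 over all promoters. The IRF1 window holds 36 CG dinucleotides. The BST2 window also holds 2 GAS cores, which begin 136 and 58 bases before the start and are not marked as such. The IRF1 window holds 1 GAS core. A match to these letters describes the sequence and does not show that a factor binds there.

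The libraries held an estimated 9653835 to 14253436 reads, so a value of 0 bounds a gene's level at 3 expected reads, which is 0.21 to 0.311 CPM by library. INPPL1 stood at 83.6 and 93.3 CPM in D4, 65.4 and 64.4 CPM in G4, 9.49 and 9.49 CPM in G10 and 88.1 and 85.3 CPM in H3, against 140 and 150 CPM in the control. Its transcript was below both control libraries in every clone and still present in all of them. All 15 squamous epithelial markers on a fixed list were expressed, and their sum was 1106 to 1893 CPM in the knock-out libraries and 3046 to 3087 CPM in the control. Of 19 markers of leukocytes, stroma and endothelium 15 were under 1 CPM in every library, among them CD3D and MS4A1 at 0 in all 10. Those 19 summed to 22.5 to 48.5 CPM in the knock-out libraries and 51.5 to 54.5 CPM in the control, nearly all of it CD68 and COL1A1. The part of the lower squamous sum in the results below was not tested.

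Of the 41 members, 34 reached 1 CPM in at least 2 libraries and were tested. The other 7 (OAS2, IFI27, RSAD2, CMPK2, TRIM22, XAF1 and HERC5) stayed under 1 CPM in every library, in knock-out and control alike, and CMPK2 was at 0 in all 10. They include RSAD2 (viperin) and IFI27, genes that interferon induces very strongly in many cells. BST2, IFITM1 and IFITM2 passed the minimum only through knock-out libraries, so their presence among the tested genes depends on their being high there, and the counts below include them.

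Of the 34 tested members 31 were called in at least 1 clone, against 71.6% of all genes. Of these, 22 were called only higher, 6 only lower, and OAS1, OAS3 and STAT2 in both directions. The shares of all genes with such a split are not given here, so it is not read as a result about the members. Changes are given as log2 fold changes of CPM + 1 with their SE, from limma fitted to all 17664 tested genes, and a change is called at a Benjamini-Hochberg adjusted p under 0.05. In D4, 16 of 34 members were higher than in the control and 2 lower, where 17.5% of all genes were higher and 23.8% lower. In G4 12 members were higher and 4 lower, against 10.9% and 16.4% of all genes. In G10 13 were higher and 5 lower, against 17.8% and 19.1%. H3 had the most, 23 higher and 4 lower, against 23.9% and 22.1%. The share of members called higher was above the background in each clone and the share called lower was below it.

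The members' median log2 fold change was 0.25 in D4, 0.28 in G4, 0.27 in G10 and 0.47 in H3, where the median over all tested genes was −0.06, −0.04, 0.00 and 0.01. Without BST2 the members' medians were 0.23, 0.30, 0.26 and 0.46 in the same order. For the mean of the 4 clones 19 members were higher and 3 lower, against 18.2% and 22.0% of all genes. All 8 knock-out libraries lay above both control libraries for 12 of the 34, against 7.66% of all genes. The 12 include IFITM1 and IFITM2, which passed the minimum only through knock-out libraries. For none of the 34 did all 8 knock-out libraries lie below, against 11.5% of all genes. ADAR, ISG15 and ISG20 were not called in any clone.

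Many single calls rest on few libraries. Several higher calls in G4 were lost when any library of G4, H3 or the control was left out. For the mean of the 4 clones, several higher calls were lost without either control library or without clone H3. Fewer members were called lower for that mean without either control library. The shares of all genes called fell in the same omissions, so these losses are not particular to the members. When replication was counted over clones, 4 against 1 control colony, limma called no member and no gene for the mean of the clones. At an unadjusted p under 0.05, 6 members were higher, where 1152 of all 17664 genes passed in either direction.

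Some calls also ended under another processing. With the median change of the 50 nearest expressed genes subtracted, no call was left for EIF2AK2 in D4 (0.19, adjusted p = 0.0708), G4 (0.14, adjusted p = 0.24) and G10 (0.18, adjusted p = 0.0884) or for IFITM3 in G10 (0.10, adjusted p = 0.636). The same held for IRF1 in G4 (0.22, adjusted p = 0.115), SAMD9L in G4 (0.33, adjusted p = 0.0688), OASL in G4 (0.50, adjusted p = 0.0832), OAS1 in D4 (0.30, adjusted p = 0.117), STAT2 in H3 (0.19, adjusted p = 0.0864) and MX1 in H3 (0.13, adjusted p = 0.625). limma-voom on the estimated reads ended the calls of IFIT2 (0.87, adjusted p = 0.0569) and IFIT5 (0.42, adjusted p = 0.0548) in D4, of IFIT5 (0.44, adjusted p = 0.0562), IFITM1 (1.13, adjusted p = 0.058) and OASL (0.85, adjusted p = 0.0597) in G4, and of USP18 (0.81, adjusted p = 0.0636) and DDX58 (−0.49, adjusted p = 0.0548) in H3.

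**Figure D1:**
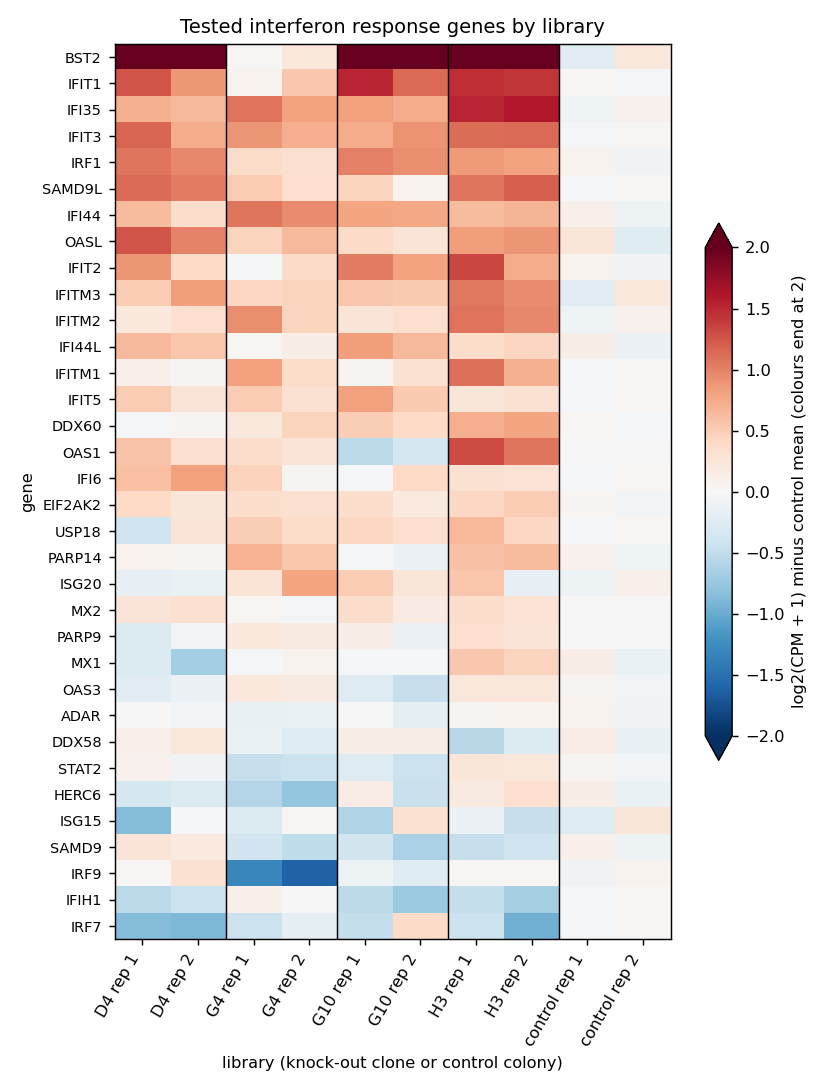
Log2 ratio of CPM + 1 to the mean of the control libraries for the 34 tested members (down the page, from the largest to the lowest mean change) in each library (across, clones D4, G4, G10 and H3 left of the control). Colours end at 2 in either direction, which BST2 passes in D4, G10 and H3 while it is near 0 in G4.

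BST2 was clearly expressed in D4, G10 and H3, and near 0 in G4 and in the control. BST2 (ENSG00000130303, chromosome 19, minus strand) stood at 67.1 and 69.0 CPM in D4, 0.3 and 0.5 CPM in G4, 32.8 and 32.1 CPM in G10 and 77.7 and 73.6 CPM in H3, against 0.1 and 0.5 CPM in the control. The 6 libraries of D4, G10 and H3 all lay far above the others, and the 2 libraries of G4 overlapped those of the control. The log2 fold change was 5.75 ± 0.14 (adjusted p = 9.94e-14) in D4, 4.70 ± 0.14 (adjusted p = 1.49e-12) in G10 and 5.90 ± 0.14 (adjusted p = 1e-13) in H3. In G4 it was 0.12 ± 0.14 (adjusted p = 0.585), and the log2 difference of G4 from the mean of the other clones was −5.33 ± 0.12 (adjusted p = 2.11e-14). The addition of 1 CPM compresses these folds, because the control held only 7 reads of BST2 in all, 1 and 6 per library.

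From the estimated reads BST2 was 236-fold higher in D4 than in the control, with an exact conditional 95% interval of 114 to 588. The ratio was 112 in G10 (54.3 to 280) and 262 in H3 (127 to 653). In G4 it was 1.36 with an interval of 0.43 to 4.39, from 8 reads against 7, so a change of a few fold in either direction could not be seen at this depth. These intervals cover counting error only. In bulk RNA, more cells that carry the transcript and more transcript per cell cannot be told apart. The order of BST2 among the clones was not that of INPPL1: G10 had the least INPPL1 and an intermediate BST2 level, and D4 and H3 had the highest levels of both among the clones.

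**Figure D2:**
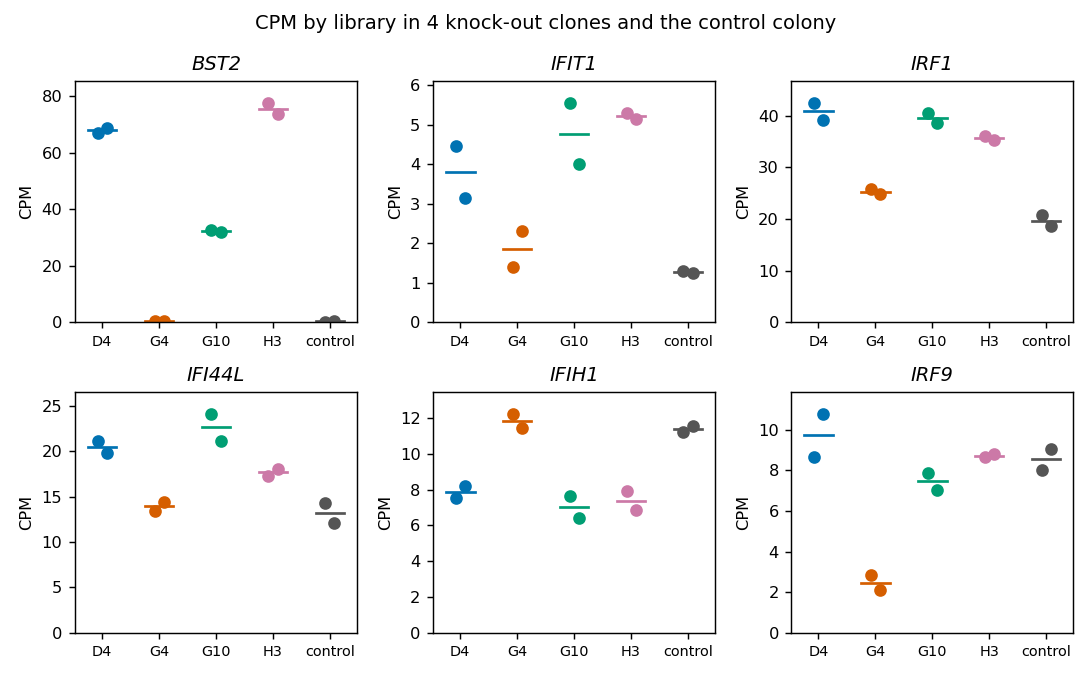
CPM of BST2, IFIT1, IRF1, IFI44L, IFIH1 and IRF9 in each of the 10 libraries (points) with the mean of each group (lines), the clones D4, G4, G10 and H3 left of the control, each panel with its own axis from 0. BST2 is near 0 in G4 and the control and between 32.1 and 77.7 CPM elsewhere, and IFIH1 has the opposite arrangement at a much smaller size.

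Among the regulators, IRF1 was the member that rose most like BST2, and the components of the STAT2 and IRF9 complex did not rise together with it. IRF1, a transcription factor that interferons induce and that itself activates interferon-stimulated genes, stood at 42.5 and 39.2 CPM in D4, 25.7 and 24.7 CPM in G4, 40.6 and 38.5 CPM in G10 and 36.1 and 35.2 CPM in H3, against 20.7 and 18.6 CPM in the control. All 8 knock-out libraries lay above both control libraries, and the G4 libraries were the lowest of the 8. The change was 1.02 ± 0.09 (adjusted p = 3.44e-07) in D4, 0.97 ± 0.09 (adjusted p = 7.74e-07) in G10 and 0.83 ± 0.09 (adjusted p = 2.54e-06) in H3, and 0.35 ± 0.09 (adjusted p = 0.0111) in G4. The call in G4 did not hold without control replicate 2 (0.27, adjusted p = 0.110) and without G4 replicate 1 (0.32, adjusted p = 0.083). The gene shares its span with AC116366.3 and C5orf56 on the other strand, and whether reads were assigned by strand is not given in the sources used here.

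IRF9, the DNA-binding partner of STAT2, stood at 8.65 and 10.8 CPM in D4, 2.85 and 2.1 CPM in G4, 7.89 and 7.04 CPM in G10 and 8.64 and 8.79 CPM in H3, against 8.04 and 9.04 CPM in the control. The G4 libraries were far below the rest, those of G10 just below the control, and those of D4 and H3 overlapped the control. The log2 change was −1.46 ± 0.16 (adjusted p = 7.6e-06) in G4, and no other clone was called. The median change of the 50 expressed genes around IRF9 on chromosome 14 was −0.93 in G4, so IRF9 lay in a stretch that was lower as a whole there. The gene lies within the span of AL136295.5 on the same strand, which can take its reads. STAT2 stood at 65.6 and 58.4 CPM in D4, 44.2 and 45.7 CPM in G4, 51.3 and 45.5 CPM in G10 and 72.9 and 72.5 CPM in H3, against 64.0 and 59.3 CPM in the control. It was lower in G4 (−0.45 ± 0.09, adjusted p = 0.00127) and in G10 (−0.34 ± 0.09, adjusted p = 0.00516) and higher in H3 (0.24 ± 0.09, adjusted p = 0.0351). The G10 call did not hold without control replicate 1 (−0.29, adjusted p = 0.0606) or G10 replicate 2 (−0.26, adjusted p = 0.0529), and the H3 call did not hold without control replicate 2 (0.18, adjusted p = 0.212) or either library of H3 (0.23, adjusted p = 0.127 and 0.24, adjusted p = 0.112).

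The remaining regulators were called in 1 or 2 clones each. IRF7, the factor that amplifies interferon production, was lower in D4 (log2 change −0.88, adjusted p = 0.012) and H3 (−0.70, adjusted p = 0.0355), and both calls were lost when either control library was left out (in D4 −0.90, adjusted p = 0.0573 and −0.86, adjusted p = 0.0689, and in H3 −0.72, adjusted p = 0.114 and −0.67, adjusted p = 0.134). The D4 call was also lost without either D4 library, and the H3 call without either library of D4 or G4 or without H3 replicate 2 (adjusted p = 0.0515 to 0.261 over these). USP18, which removes ISG15 and dampens the receptor, was higher in H3 only just past the threshold (0.54, adjusted p = 0.0489), with no call when any library of the control, G4, G10 or H3 was left out (adjusted p = 0.0516 to 0.251). PARP14 was higher in G4 (0.62, adjusted p = 0.000143) and H3 (0.60, adjusted p = 6.02e-05), at 47.6 and 43.2 CPM in G4 and 44.1 and 45.6 CPM in H3, against 30.9 and 27.5 CPM in the control. PARP14 is an ADP-ribosyltransferase. PARP9, a member of its family, was higher in H3 (0.29, adjusted p = 0.0337) with no call without either control library (0.28, adjusted p = 0.112 and 0.30, adjusted p = 0.0971) or either H3 library (0.25, adjusted p = 0.168 and 0.33, adjusted p = 0.0717).

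The RNA sensors did not follow BST2, and one of them mirrored it. IFIH1 (MDA5), the sensor of long double-stranded RNA, stood at 7.55 and 8.19 CPM in D4, 12.2 and 11.4 CPM in G4, 7.64 and 6.4 CPM in G10 and 7.9 and 6.84 CPM in H3, against 11.2 and 11.5 CPM in the control. The 6 libraries of D4, G10 and H3 lay below the control, and those of G4 were at its level. The change was −0.48 ± 0.14 (adjusted p = 0.00971) in D4, −0.63 ± 0.14 (adjusted p = 0.00181) in G10 and −0.57 ± 0.14 (adjusted p = 0.00287) in H3, and in G4 it was 0.05 ± 0.14 (adjusted p = 0.811). The D4 call did not hold without control replicate 2 (−0.46, adjusted p = 0.0588) or D4 replicate 1 (−0.43, adjusted p = 0.0642). DDX58 (RIG-I), the sensor of viral RNA ends, was lower in H3 alone (−0.42, adjusted p = 0.0452), a call lost without control replicate 1 (−0.27, adjusted p = 0.318), H3 replicate 1 (−0.27, adjusted p = 0.305), D4 replicate 2 (−0.42, adjusted p = 0.0504) or either G4 library (−0.42, adjusted p = 0.0547 and −0.42, adjusted p = 0.0541). DDX60, a related helicase, was higher in G10 (0.45, adjusted p = 0.0129) and H3 (0.76, adjusted p = 0.000179), the G10 call not holding without control replicate 2 (0.40, adjusted p = 0.0835) or G10 replicate 1 (0.40, adjusted p = 0.0607).

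Of the 10 expressed members grouped here as RNA effectors, 7 were higher in D4, 4 in G4, 5 in G10 and 7 in H3. Of all genes 17.5%, 10.9%, 17.8% and 23.9% were higher there. In G10 2 of the 10 were lower, against 19.1% of all genes. The IFIT genes, clustered on chromosome 10, encode proteins that bind viral RNA and hinder its translation. IFIT1 stood at 4.45 and 3.15 CPM in D4, 1.4 and 2.3 CPM in G4, 5.55 and 4 CPM in G10 and 5.3 and 5.15 CPM in H3, against 1.3 and 1.25 CPM in the control. All 6 libraries of D4, G10 and H3 lay above every G4 and control library, and the G4 libraries lay just above the control. The change was 1.06 ± 0.20 (adjusted p = 0.000577) in D4, 1.33 ± 0.20 (adjusted p = 9.99e-05) in G10 and 1.45 ± 0.20 (adjusted p = 2.7e-05) in H3, and in G4 it was 0.31 ± 0.20 (adjusted p = 0.288).

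IFIT2 stood at 4.55 and 2.95 CPM in D4, 1.95 and 2.9 CPM in G4, 5.1 and 4.25 CPM in G10 and 6.55 and 4 CPM in H3, against 2.15 and 1.85 CPM in the control. It was higher in G10 (0.92 ± 0.22, adjusted p = 0.00457) and H3 (1.04 ± 0.22, adjusted p = 0.0014), and in D4 (0.64 ± 0.22, adjusted p = 0.0314) with a call lost without control replicate 1 (0.72, adjusted p = 0.0708), control replicate 2 (0.57, adjusted p = 0.147) or D4 replicate 1 (0.40, adjusted p = 0.270). In G4 its change was 0.18 ± 0.22 (adjusted p = 0.605), with 1 of its 2 libraries above the control. IFIT3 differed from these 2 in that G4 took part. IFIT3 stood at 7.2 and 5.1 CPM in D4, 5.75 and 5.05 CPM in G4, 5.1 and 5.8 CPM in G10 and 6.94 and 6.99 CPM in H3, against 2.6 and 2.7 CPM in the control, and every knock-out library was above the control. The change was 0.95 ± 0.17 (adjusted p = 0.000261) in D4, 0.81 ± 0.17 (adjusted p = 0.00202) in G4, 0.82 ± 0.17 (adjusted p = 0.00114) in G10 and 1.13 ± 0.17 (adjusted p = 4.55e-05) in H3. IFIT1, IFIT2 and IFIT3 lie within the annotated span of LIPA on the other strand, whose mean level was 71.9 CPM, so reads assigned without strand could have been shared. IFIT5 was higher in D4, G4 and G10 by 0.38 to 0.68, and only the G10 call (0.68, adjusted p = 0.00127) survived every omission of a library.

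The OAS genes encode enzymes that make the activator of RNase L, and they did not move as a family. OAS1 stood at 11.9 and 9.84 CPM in D4, 10.1 and 9.4 CPM in G4, 5 and 5.85 CPM in G10 and 20.5 and 17.3 CPM in H3, against 7.8 and 7.64 CPM in the control. It was higher in H3 (1.18 ± 0.14, adjusted p = 4.78e-06) and D4 (0.44 ± 0.14, adjusted p = 0.0193) and lower in G10 (−0.44 ± 0.14, adjusted p = 0.0203), so the groups stood on both sides of the control. The calls in D4 and G10 were lost when control replicate 1 was left out (0.45, adjusted p = 0.0658 in D4 and −0.43, adjusted p = 0.0876 in G10) or control replicate 2 (0.43, adjusted p = 0.0822 in D4 and −0.46, adjusted p = 0.0688 in G10). They were also lost without replicate 1 of the clone itself (0.31, adjusted p = 0.169 in D4 and −0.35, adjusted p = 0.114 in G10). OAS1 and OAS3 share their span with the antisense transcript AC004551.1. OAS3 was lower in G10 (−0.36, adjusted p = 0.00166) and higher in H3 (0.22, adjusted p = 0.0262), the H3 call not holding without control replicate 2 (0.17, adjusted p = 0.198) or either H3 library (0.23, adjusted p = 0.0956 and 0.22, adjusted p = 0.103).

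OASL, a relative that lacks the enzyme activity and assists RIG-I, stood at 5.05 and 4.05 CPM in D4, 2.45 and 3 CPM in G4, 2.3 and 2.05 CPM in G10 and 3.55 and 3.7 CPM in H3, against 2 and 1.15 CPM in the control. The D4 libraries were the highest and those of G10 nearest the control. It was higher in D4 (1.12 ± 0.19, adjusted p = 0.000217), H3 (0.86 ± 0.19, adjusted p = 0.00161) and G4 (0.55 ± 0.19, adjusted p = 0.0442), and the G4 call did not hold without control replicate 2 (0.31, adjusted p = 0.367) or either library of G4 (0.66, adjusted p = 0.0757 and 0.44, adjusted p = 0.226) or of H3 (0.55, adjusted p = 0.0586 for each). EIF2AK2 (PKR), the kinase that stops translation on double-stranded RNA, stood at 141 and 127 CPM in D4, 136 and 134 CPM in G4, 136 and 123 CPM in G10 and 142 and 152 CPM in H3, against 110 and 103 CPM in the control. All 8 knock-out libraries were above both control libraries, by changes of 0.28 (adjusted p = 0.00953) in G10 to 0.46 (adjusted p = 0.000148) in H3. The G10 call did not hold without control replicate 2 (0.23, adjusted p = 0.0877) or G10 replicate 1 (0.20, adjusted p = 0.0719).

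Of the membrane effectors other than BST2, IFITM3 rose in all clones and IFITM1 and IFITM2 in G4 and H3. IFITM proteins sit in endosomal and plasma membranes and hinder the fusion of viruses. IFITM3 stood at 37.9 and 48.0 CPM in D4, 35.5 and 36.4 CPM in G4, 39.1 and 38.4 CPM in G10 and 56.0 and 51.7 CPM in H3, against 22.4 and 31.2 CPM in the control. All knock-out libraries lay above the control, whose own 2 libraries differed more than those of any clone but D4. The change was 1.00 ± 0.14 (adjusted p = 0.000102) in H3, 0.67 ± 0.14 (adjusted p = 0.00228) in D4, 0.53 ± 0.14 (adjusted p = 0.0102) in G10 and 0.43 ± 0.14 (adjusted p = 0.0402) in G4. Without control replicate 1 the calls in G10 (0.31, adjusted p = 0.0915) and G4 (0.20, adjusted p = 0.320) were lost, and the G4 call also failed without G4 replicate 1 (0.45, adjusted p = 0.137), G4 replicate 2 (0.41, adjusted p = 0.167) or either H3 library (0.43, adjusted p = 0.0592 and 0.43, adjusted p = 0.06). The 50 expressed genes around IFITM3 on chromosome 11 had a median change of 0.43 in G10.

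IFITM2 stood at 0.8 and 0.95 CPM in D4, 1.95 and 1.1 CPM in G4, 0.85 and 0.95 CPM in G10 and 2.3 and 2 CPM in H3, against 0.45 and 0.65 CPM in the control. Its G4 and H3 libraries were the highest. The change was 1.02 ± 0.20 (adjusted p = 0.000559) in H3 and 0.69 ± 0.20 (adjusted p = 0.0178) in G4, and the G4 call did not hold without control replicate 1 (0.59, adjusted p = 0.118) or G4 replicate 1 (0.44, adjusted p = 0.199). IFITM1 had a similar pattern, at 2.15 and 1.30 CPM in G4 and 2.80 and 1.90 CPM in H3, against 0.75 and 0.80 CPM in the control. IFITM1 was higher in H3 (0.90, adjusted p = 0.00204) and in G4 (0.60, adjusted p = 0.0413), the G4 call not holding without control replicate 1 (0.58, adjusted p = 0.145), control replicate 2 (0.62, adjusted p = 0.114) or G4 replicate 1 (0.37, adjusted p = 0.318). Its span overlaps that of IFITM2 on the same strand and the 2 genes are close copies, so their values are not independent. IFI6, a mitochondrial and endoplasmic reticulum protein, was higher in D4 alone (0.70, adjusted p = 0.00876), and that call did not hold without D4 replicate 2 (0.60, adjusted p = 0.0712).

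Of the remaining effectors, IFI35 and IFI44 were called higher in every clone. IFI35, a partner of NMI, stood at 5.6 and 5.3 CPM in D4, 7.5 and 6.05 CPM in G4, 6.1 and 5.7 CPM in G10 and 10.5 and 11.1 CPM in H3, against 2.8 and 3.25 CPM in the control. Every knock-out library was above the control and those of H3 were the highest. The change was 1.56 ± 0.15 (adjusted p = 5.48e-07) in H3, 0.95 ± 0.15 (adjusted p = 0.000255) in G4, 0.78 ± 0.15 (adjusted p = 0.000736) in G10 and 0.68 ± 0.15 (adjusted p = 0.00176) in D4. IFI44 stood at 14.9 and 12.1 CPM in D4, 20.6 and 18.8 CPM in G4, 16.8 and 16.7 CPM in G10 and 15.0 and 15.5 CPM in H3, against 10.04 and 8.64 CPM in the control, and here the G4 libraries were the highest of all. Its change was 1.00 ± 0.12 (adjusted p = 2.76e-05) in G4, 0.78 ± 0.12 (adjusted p = 0.000141) in G10, 0.66 ± 0.12 (adjusted p = 0.000447) in H3 and 0.49 ± 0.12 (adjusted p = 0.00498) in D4. The D4 call did not hold without control replicate 2 (0.39, adjusted p = 0.0617) or D4 replicate 1 (0.35, adjusted p = 0.0756).

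IFI44L lies next to IFI44 on chromosome 1 and is a related gene, yet G4 was at the level of the control for it. IFI44L stood at 21.1 and 19.8 CPM in D4, 13.4 and 14.4 CPM in G4, 24.1 and 21.1 CPM in G10 and 17.2 and 18.1 CPM in H3, against 14.2 and 12.0 CPM in the control. It was higher in G10 (0.74 ± 0.12, adjusted p = 0.000118), D4 (0.60 ± 0.12, adjusted p = 0.000586) and H3 (0.40 ± 0.12, adjusted p = 0.00933), and in G4 its change was 0.08 ± 0.12 (adjusted p = 0.655). The H3 call did not hold without control replicate 2 (0.29, adjusted p = 0.115) or H3 replicate 2 (0.37, adjusted p = 0.0651). The neighbours IFI44 and IFI44L thus had their highest levels in different clones.

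SAMD9L, a growth-restraining antiviral protein, stood at 33.6 and 31.1 CPM in D4, 21.5 and 18.8 CPM in G4, 20.6 and 15.6 CPM in G10 and 32.2 and 35.1 CPM in H3, against 14.6 and 14.9 CPM in the control. The D4 and H3 libraries were the highest and the G10 libraries were nearest the control. The change was 1.13 ± 0.12 (adjusted p = 1.82e-06) in H3 and 1.08 ± 0.12 (adjusted p = 3.83e-06) in D4, and 0.42 ± 0.12 (adjusted p = 0.0177) in G4, where the call did not hold without control replicate 1 (0.41, adjusted p = 0.0836), control replicate 2 (0.44, adjusted p = 0.0603) or G4 replicate 1 (0.33, adjusted p = 0.157). SAMD9, its neighbour and paralog, was lower in G4 (−0.45, adjusted p = 0.00221), G10 (−0.51, adjusted p = 0.000542) and H3 (−0.43, adjusted p = 0.0015), and in D4 its change was 0.23 (adjusted p = 0.0593).

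MX2, a GTPase known for blocking HIV, stood at 80.3 and 83.8 CPM in D4, 69.2 and 66.2 CPM in G4, 86.3 and 75.6 CPM in G10 and 86.2 and 82.4 CPM in H3, against 67.6 and 66.5 CPM in the control. It was higher in D4 (0.29, adjusted p = 0.00772), G10 (0.26, adjusted p = 0.0142) and H3 (0.33, adjusted p = 0.00287). The 50 expressed genes around MX2 on chromosome 21 had median changes of 0.36 in D4, −0.07 in G4, 0.37 in G10 and 0.36 in H3, so MX2 moved no more than its neighbourhood. Less those medians, its changes were −0.07 in D4, −0.11 in G10 and −0.03 in H3. The D4 call did not hold without D4 replicate 2 (0.26, adjusted p = 0.0569), and the G10 call without control replicate 1 (0.28, adjusted p = 0.0543), control replicate 2 (0.25, adjusted p = 0.0743) or G10 replicate 1 (0.17, adjusted p = 0.126). MX1, the influenza-restricting relative beside it, was higher in H3 (0.49, adjusted p = 0.0445), a call lost without control replicate 2 (0.35, adjusted p = 0.264) or either library of H3 (0.44, adjusted p = 0.179 and 0.54, adjusted p = 0.0981) or of G4 (0.49, adjusted p = 0.0523 and 0.49, adjusted p = 0.0525).

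Neither ISG15 nor HERC6, the tested members grouped here as the ISG15 system, was called higher in any clone. USP18 and UBE2L6, which also act on ISG15, are described with other groups. ISG15, the ubiquitin-like modifier and one of the most inducible interferon targets, stood at 2.95 and 6.04 CPM in D4, 5 and 6.35 CPM in G4, 3.75 and 7.99 CPM in G10 and 5.65 and 4.25 CPM in H3, against 5.1 and 7.6 CPM in the control. Its libraries overlapped between all groups, and the change was −0.46 ± 0.39 (adjusted p = 0.398) in D4, −0.12 ± 0.39 (adjusted p = 0.853) in G4, −0.15 ± 0.39 (adjusted p = 0.804) in G10 and −0.29 ± 0.39 (adjusted p = 0.584) in H3. HERC6, a HECT domain protein related to the ISG15 ligase HERC5, was lower in G4 (−0.68, adjusted p = 0.00906), a call lost without control replicate 1 (−0.54, adjusted p = 0.0886) or G4 replicate 2 (−0.58, adjusted p = 0.087).

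Whether the members divide the clones as BST2 does was read from the difference between G4 and the mean of D4, G10 and H3. G4 was lower for 12 of the 34 members and higher for 4, where 23.7% of all genes were lower and 19.1% higher. The members' median difference was −0.11, or −0.09 without BST2, and −0.03 over all genes. The lower ones after BST2 were IRF9 (−1.47), IFIT1 (−0.98), IFIT2 (−0.69), HERC6 (−0.61), IRF1 (−0.59), IFI44L (−0.50), STAT2 (−0.41), SAMD9L (−0.40), IFITM3 (−0.31), MX2 (−0.28) and SAMD9 (−0.22). The higher ones were IFIH1 (0.61), PARP14 (0.42), IFI44 (0.36) and OAS3 (0.30).

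None of these members came near the difference of BST2. As with BST2, IFIT1, IRF1, IFI44L, IFIT2, IFITM3 and MX2 were called higher than the control in D4, G10 and H3 and lower in G4 than in those 3. Of these, IFIT1 (adjusted p = 0.000189), IRF1 (adjusted p = 1.08e-05) and IFI44L (adjusted p = 0.00045) kept the call of the difference whichever library was left out. IRF9, STAT2, HERC6 and SAMD9 were arranged otherwise, since G4 was lower than the control as well. The share of all genes arranged as BST2 is not given here, so the members with that arrangement are not read as an excess. Without G4 replicate 2 the count of lower members was 7, the calls of HERC6 (−0.52, adjusted p = 0.0613), SAMD9L (−0.31, adjusted p = 0.0941), SAMD9 (−0.15, adjusted p = 0.308), IFITM3 (−0.32, adjusted p = 0.172) and MX2 (−0.25, adjusted p = 0.05) being lost. Without G4 replicate 1 those of IFIT2 (−0.49, adjusted p = 0.145), IFI44 (0.30, adjusted p = 0.122), IFITM3 (−0.29, adjusted p = 0.227) and SAMD9 (−0.28, adjusted p = 0.0585) were lost, and omissions of D4, G10 or H3 libraries also ended the calls of IFITM3 and SAMD9. By the F test 27 of the 34 members differed between the 4 clones, against 67.3% of all genes.

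**Figure D3:**
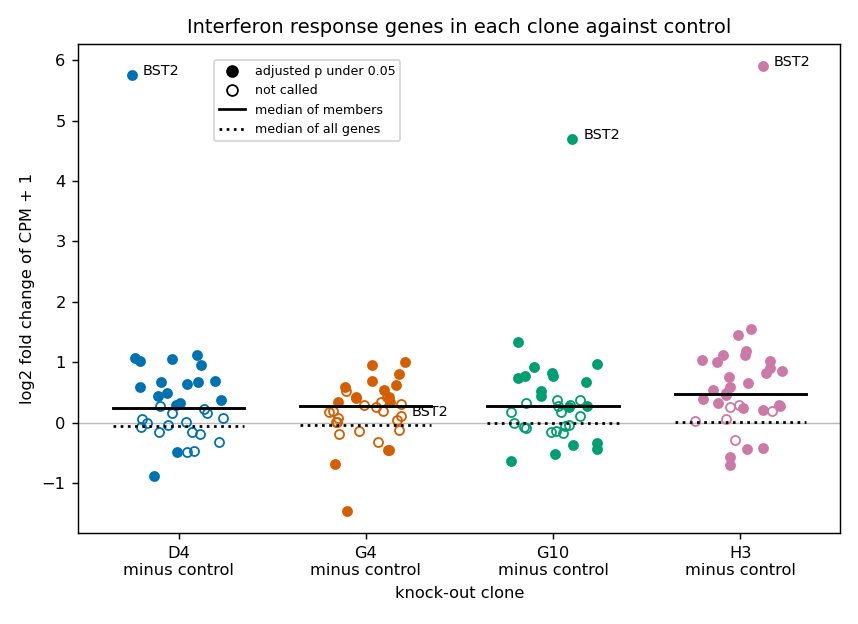
Log2 fold change of each tested member against the control in each clone, D4, G4, G10 and H3 from left to right, with BST2 marked and the median of the members and of all tested genes drawn. Apart from BST2 at 5.75, 4.70 and 5.90 in D4, G10 and H3, the members lie between −1.46 and 1.56.

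As a description of likeness, the Pearson r of log2(CPM + 1) with BST2 over the 10 libraries was taken for the 33 other members. It was highest for MX2 (0.94), IFIT1 (0.92) and IRF1 (0.92) and lowest for IFIH1 (−0.92), IRF7 (−0.54) and ISG15 (−0.34). Of the 33, 5 were over 0.8, as were 7.3% of the 12756 genes whose mean reached 5 CPM. The members had no such minimum, and IFIT1 and IFIT2, both over 0.8, averaged below it. The 10 libraries are 5 pairs and share their control, so this r mostly repeats the contrast of G4 and the control with the other clones. Among all genes the nearest to BST2 were WFDC2 (0.992), ALDH1A3 (0.991), its antisense neighbour AC015712.2 (0.990), FGD3 (0.989) and PPARGC1A (0.988), and none of these is a member. ALDH1A3, a retinaldehyde dehydrogenase, stood at 973 and 989 CPM in D4, 430 and 416 CPM in G4, 973 and 926 CPM in G10 and 1132 and 1138 CPM in H3, against 441 and 429 CPM in the control. These genes have the same division of the clones as BST2.

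The change at BST2 was also set beside its chromosomal surroundings. BISPR, a long non-coding RNA that starts head to head with BST2 and whose promoter window shares 155 bases with that of BST2, averaged 1.40 CPM in D4, 0.10 CPM in G4, 1.97 CPM in G10 and 2.5 CPM in H3, against 0.05 CPM in the control. Its log2 change was 1.19 (adjusted p = 0.000221) in D4, 1.48 (adjusted p = 3.7e-05) in G10 and 1.73 (adjusted p = 5e-06) in H3, and 0.07 (adjusted p = 0.841) in G4. BISPR thus divided the clones as BST2 did, on counts of 27 reads in D4, 2 in G4, 53 in G10 and 63 in H3, against 1 in the control. From reads BISPR was 33-fold higher in D4 than in the control (exact conditional 95% interval 5.44 to 1350), 46.8-fold in G10 (8.05 to 1880) and 60.5-fold in H3 (10.5 to 2430), intervals that overlap those of BST2. Its span overlaps MVB12A on the same strand. The 10 nearest tested coding genes had a median change of 0.06 in D4, 0.10 in G4, 0.46 in G10 and 0.60 in H3, the highest being 1.22 in H3 for MVB12A. In D4 the neighbours were thus near the control while BST2 was at 5.75, and no coding neighbour in any clone had a change of the size of BST2.

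**Figure D4:**
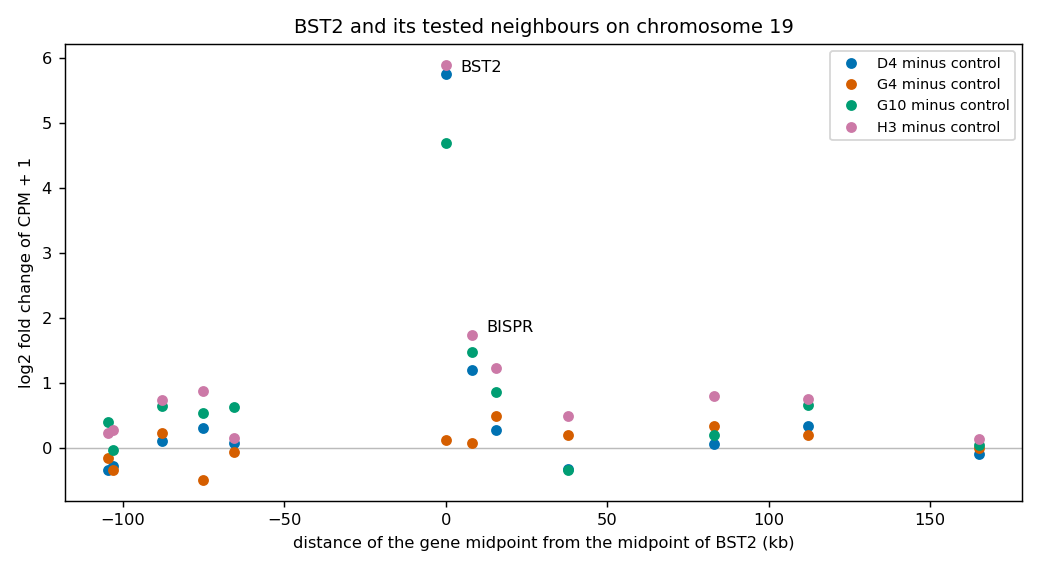
Log2 fold change against the control in each clone for BST2, BISPR and the 10 nearest tested coding genes, by the distance of each gene's midpoint from that of BST2 in kilobases on chromosome 19. BST2 stands alone at 4.70 to 5.90 in D4, G10 and H3, with BISPR at 1.19 to 1.73 on this scale, which compresses its low counts more than those of BST2, and the coding neighbours lie between −0.50 and 1.22.

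Genes upstream and beside the members were taken from lists to place them in the pathway. Of 22 interferon ligands, 21 were under 1 CPM in every library, 12 of them at 0 in all. The exception was IFNE, the interferon of epithelia, which was lower for the mean of the clones (log2 change −0.66 ± 0.15, adjusted p = 0.00302). Of 16 receptor and signalling genes 3 were higher and 4 lower for that mean, where 18.2% of all genes were higher and 22.0% lower, so the list was near the background. IFNAR2, the receptor's high-affinity chain, stood at 33.0 and 28.8 CPM in D4, 10.4 and 12.8 CPM in G4, 18.2 and 18.1 CPM in G10 and 25.1 and 30.3 CPM in H3, against 11.8 and 9.79 CPM in the control. It was higher in D4 (1.44 ± 0.13, adjusted p = 3.97e-07), G10 (0.71 ± 0.13, adjusted p = 0.000587) and H3 (1.28 ± 0.13, adjusted p = 1.13e-06), in G4 its change was 0.09 ± 0.13 (adjusted p = 0.65), and it divided the clones as BST2 did. The expressed genes around IFNAR2 on chromosome 21 had smaller median changes, 0.27 in D4, −0.06 in G4, 0.28 in G10 and 0.29 in H3. IFNLR1, on the same list at 2.95 CPM or less, went the opposite way (−1.64 in D4, −0.16 in G4, −1.34 in G10 and −0.70 in H3). For IFNLR1 G4 was above the mean of the other clones (1.07, adjusted p = 9.28e-05). In that comparison G4 was higher for 4 of the 16 genes and lower for 7, against 19.1% and 23.7% of all genes.

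Of 17 tested genes of nucleic acid sensing 4 were higher and 4 lower for the mean of the clones, also near those shares. TMEM173 (STING) was highest in G4, at 25.5 and 23.6 CPM there against 9.59 and 9.94 CPM in the control, while IFI16, a DNA sensor, stood at 43.9 and 39.2 CPM in D4, 85.2 and 83.0 CPM in G4, 42.2 and 34.1 CPM in G10 and 31.2 and 32.5 CPM in H3, against 76.8 and 69.1 CPM in the control and was lower in D4, G10 and H3 but not called in G4. Of 33 other interferon-stimulated genes 19 were higher and 4 lower for the mean of the clones, against the same 18.2% and 22.0% of all genes. LGALS3BP, a secreted glycoprotein, was higher in every clone, at 118 to 191 CPM in the knock-out libraries and 40.8 and 48.6 CPM in the control. UBE2L6, the conjugating enzyme for ISG15, stood at 8.05 and 7.39 CPM in D4, 3.05 and 3.1 CPM in G4, 8.19 and 7.74 CPM in G10 and 13.1 and 11.9 CPM in H3, against 2.8 and 2.4 CPM in the control and so had the arrangement of BST2, as did APOL6, which stood at 78.0 and 71.9 CPM in D4, 28.5 and 25.5 CPM in G4, 59.0 and 48.3 CPM in G10 and 84.5 and 95.5 CPM in H3, against 28.8 and 31.4 CPM in the control. SLFN5 was lower in every clone, at 27.1 to 74.6 CPM in the knock-out libraries and 114 and 108 CPM in the control. Of 14 interferon-gamma targets 6 were under 1 CPM in every library, and CXCL9, CXCL10 and CXCL11 were at or near 0 throughout. Of the 8 tested, 4 were higher in D4, 2 in G4, 4 in G10 and 4 in H3. Of all genes 17.5%, 10.9%, 17.8% and 23.9% were higher there. Lower were 1, 0, 1 and 3 of the 8 in that order, against 23.8%, 16.4%, 19.1% and 22.1%. G4 was lower than the mean of the other clones for 5 and higher for 2, against 23.7% and 19.1%.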

How the data were processed

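RNA of 10 KYSE-410 libraries was sequenced after library preparation with the Ovation Solo kit, per the labels' protocols. The deposited values are CPM per gene, 1 column per library, per the file headers. Per the submitters' processing notes the tools were STAR 2.5.3a and HTSeq and the genome hg38, while the annotation, strand setting and filters are not given in the sources used here. The steps in the values fitted reads scaled to a total of 20000000, and depths were estimated by undoing that. CPM is not per length, so levels were compared between samples only. Positions came from GENCODE 29, which matched 58039 of 58302 genes.

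The fit was made to log2(CPM + 1), for genes reaching 1 CPM in 2 or more libraries, in limma 3.58.1 (R 4.3.3; trend, robust), 1 coefficient per group, 5 residual degrees of freedom, Benjamini-Hochberg over all genes. edgeR had been planned for whole reads, which could not be established here, and limma-voom on the estimated reads took its place. Other alternatives were a pseudocount of 0.1, no filter, a mean of at least 5 CPM, median-of-ratios scaling, the replicate number as a block, subtraction of the median of 50 neighbouring genes, the clone as a random block, and leaving out each library and each clone. Fully described by library were BST2, members called with a log2 change of at least 1 in a clone and members called the same way in all 4 clones, with MX2, IFIH1, STAT2, ISG15 and the companion genes added after their values were seen. The members and lists were chosen with earlier results of these data known. The fit was tested on simulated data. Python 3.11.15, numpy 2.4.6, pandas 2.3.3 and matplotlib 3.10.9 were used. Some genes of the companion and marker lists are not reported here.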

Additional observations from a re-analysis of the deposited data

Results flagged for a closer look

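Clone G4 differed from the mean of clones D4, G10 and H3 for 16 members, each by limma on that difference itself, which compares particular clones. G4 was lower for BST2 (log2 difference −5.33), IRF9 (−1.47), IFIT1 (−0.98), IFIT2 (−0.69), HERC6 (−0.61), IRF1 (−0.59), IFI44L (−0.50), STAT2 (−0.41), SAMD9L (−0.40), IFITM3 (−0.31), MX2 (−0.28) and SAMD9 (−0.22). G4 was higher for IFIH1 (0.61), PARP14 (0.42), IFI44 (0.36) and OAS3 (0.30). Of all tested genes 23.7% were lower and 19.1% higher in this comparison. OAS1, OAS3 and STAT2 were called higher in 1 clone or more and lower in another, and the F test between the 4 clones gave them adjusted p = 8.66e-07, 1.42e-05 and 1.57e-05 in limma. Groups of 2 libraries are too small for a test of single outlying libraries.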

How the results depend on the processing

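Of the 112 calls of members other than BST2 in 6 comparisons, 51 kept their direction and their side of the threshold under every alternative that gave them a value, 63 did so when each library or clone was left out and 68 under the other alternatives. The replicate number as a block changed none of the 112, and BST2 kept 4.12 for the mean of the 4 clones under the block. Deviations of same-numbered libraries correlated at 0.213 to 0.414 for the 6 pairs among control, D4, G4 and G10 and at −0.237 to −0.083 for the 4 pairs with H3, so the numbers were not taken to pair all the libraries. With the clone as a random block, 0 members were higher and 0 lower for the mean of the 4 clones. At an unadjusted p under 0.05, 6 were higher and 0 lower, where 1152 of all 17664 genes passed in either direction. BST2 at 4.12 had an adjusted p = 0.758 in limma, since 4 clones stand against 1 colony. Members lower in D4 numbered 1 with a mean of at least 5 CPM and 4 with neighbour medians subtracted, against 2.

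Directions reversed in a few cases. IRF9 for the mean of the 4 clones was 0.01 without clone G4. MX2 less the median of its neighbours was −0.07 in D4, −0.11 in G10, −0.03 in H3, −0.04 for the mean of the clones and 0.09 for G4 against the other clones. BST2 in G4 ranged from −0.10 to 0.34 over the omissions of 1 library, the lowest without control replicate 1. Over those omissions the members higher numbered 5 to 13 in G4 and 12 to 20 for the mean of the clones. Members lower numbered 0 to 2 in D4, 3 to 6 in G10, 2 to 4 in H3, 0 to 4 for the mean of the clones and 7 to 12 for G4 against the other clones. The share of all genes called also fell in each clone when a library of that clone or of the control was left out. It fell too for the mean without a control library, and for G4 against the other clones without a G4 library. Depth limits BST2 in G4, at 8 reads against 7 in the control.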
